A study of Bos indicus with 5 samples.

Results

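The estrogen receptors and their main coregulators were examined in Nelore cows (Bos indicus), in the ampulla, the wide ovarian portion of the oviduct. The group comprised 7 genes chosen by symbol from the 24616 genes of the table. They were the receptors ESR1 and ESR2, the p160 coactivators NCOA1, NCOA2 and NCOA3, and the corepressors NCOR1 and NRIP1. All 7 had a single entry and passed the filter on low values, a mean normalized read count over 5. No measured value entered the rule, but the set was proposed with earlier results of these data known.

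Messenger RNA was sequenced from tissue collected on day 4 after the GnRH injection that induced ovulation, in healthy, multiparous cows that were not lactating. After presynchronization all cows received an intravaginal progesterone device together with estradiol benzoate, prostaglandin F2α at device removal and again later, and then GnRH. The 2 LF/LCL cows were managed towards a large follicle and a large corpus luteum, with the device withdrawn 42 h before GnRH, and an extra prostaglandin injection was given when it was inserted. The 3 SF/SCL cows were managed towards a small follicle and a small corpus luteum, with withdrawal 30 h before GnRH and no such extra injection. Each library came from a different cow. The cows were picked from the extremes of a ranking on follicle size, corpus luteum area and plasma hormones, so they stand for the ends of each group, and another LF/LCL library had been left out by the authors for its few reads. The tissue spanned the whole wall of the oviduct on the side of the corpus luteum, so that epithelium, stroma, muscle and serosa were read together.

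Estradiol acts mostly through ESR1 (estrogen receptor alpha) and ESR2 (estrogen receptor beta), nuclear receptors that heat shock chaperones hold ready for hormone. The bound receptor pairs up, sits on DNA and takes up p160 coactivators, which bring histone acetyltransferases and open chromatin. NCOR1 brings histone deacetylase to receptors without agonist, whereas NRIP1 binds the agonist-bound receptor, competes with the p160 proteins and is itself induced by estrogen in several tissues. In the oviduct, estrogen is known for its part in secretion, ciliary function and muscle activity around ovulation.

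Between 13418278 and 19592174 reads were assigned to genes in a library. The oviduct glycoprotein gene OVGP1, the epithelial factor PAX8 and the ciliary factor FOXJ1 were read in all 5 libraries. Summed smooth muscle markers were lowest in SF/SCL replicate 3 (19404 normalized reads) and highest in LF/LCL replicate 1 (143237). By limma, 0 of 15815 genes passed at 0.05 after Benjamini-Hochberg adjustment and 1819 had an unadjusted p under 0.05. The edgeR quasi-likelihood test also called 0, with 1828 unadjusted. DESeq2 called 457 genes and the edgeR exact test 335.

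Both receptor transcripts had higher values in each LF/LCL cow than in any SF/SCL cow and NRIP1 had lower values, though no difference passed after adjustment. NCOA1, NCOA2, NCOA3 and NCOR1 had log2 differences from -0.16 to 0.19. The groups did not overlap for NCOA3 and NCOR1 either. Non-overlap thus held for 5 of the 7 genes (71.4%), beside 30.1% of all genes tested. By group mean ESR1 was 1.46 times and ESR2 2.22 times as abundant in LF/LCL as in SF/SCL, and NRIP1 was 0.806 times as abundant. In bulk tissue, fewer cells of a type and less RNA per cell cannot be told apart. After adjustment over all genes tested, 0 of the 7 genes passed with limma (0% of all genes), with DESeq2 (2.89% of all genes) or with the edgeR exact test (2.12%). An unadjusted p under 0.05 was found for ESR1 and NRIP1, which is 2 of 7 genes (28.6%) beside 11.5% of all genes tested. ESR1 was the gene of this pair higher in LF/LCL and NRIP1 the lower one. Of all genes tested, 5.64% were higher and 5.86% lower in LF/LCL with such a p. The median log2 fold change of the 7 genes was 0.04, and that of all genes tested 0.01. The count of 2 fell to 0 without LF/LCL replicate 1, and to 1 when either SF/SCL replicate 2 or 3 was left out.

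ESR1 (ENSBTAG00000007159) had 4347 normalized reads in LF/LCL replicate 1 and 3578 in replicate 2, whereas SF/SCL replicates 1 to 3 had 2907, 2248 and 2985. Both LF/LCL libraries were above every SF/SCL library, and SF/SCL replicate 2 was the lowest. The gap between the groups, from 2985 to 3578, was smaller than the range inside either group. The LF/LCL mean was 3963 ± 543.8 (SD, n = 2), and the SF/SCL mean 2713 ± 405.0 (SD, n = 3). The log2 fold change on the log2(value + 1) scale was 0.55 ± 0.16 (SE), with a 95% interval from 0.15 to 0.95 and a limma adjusted p of 0.330. Across 17 alternative fits the adjusted p of ESR1 ran from 0.115 to 0.686 and the fold change from 0.41 to 0.69. The unadjusted p was under 0.05 in 16 of the 17. The exception was the fit without LF/LCL replicate 1, where it was 0.0975.

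ESR2 (ENSBTAG00000004498) had 384.7 and 300.1 normalized reads in the LF/LCL cows, against 265, 135 and 63.3 in the SF/SCL cows. There was no overlap between groups, but the SF/SCL cows were spread widely and SF/SCL replicate 1 sat closer to LF/LCL than to SF/SCL replicate 3. In reads this was 328 and 310 in LF/LCL against 255, 174 and 59 in SF/SCL. Counting error alone gave exact Poisson 95% intervals of 267.6 to 335.4 normalized reads for LF/LCL replicate 2 and 233.6 to 299.7 for SF/SCL replicate 1, which overlap. SF/SCL replicate 3, with 48.2 to 81.7, lay apart from all other libraries. Group means were 342.4 ± 59.8 (SD, n = 2) and 154.6 ± 102.3 (SD, n = 3). The log2 fold change was 1.36 ± 0.58 (SE), with an interval from -0.07 to 2.79 and a limma adjusted p of 0.455. Leaving out SF/SCL replicate 3 gave 0.84, and leaving out replicate 1 of that group gave 1.86 with an unadjusted limma p of 0.00637. Over the 17 alternatives the adjusted p ran from 0.339 to 0.764, and the unadjusted p was under 0.05 in 4.

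**Figure D1:**
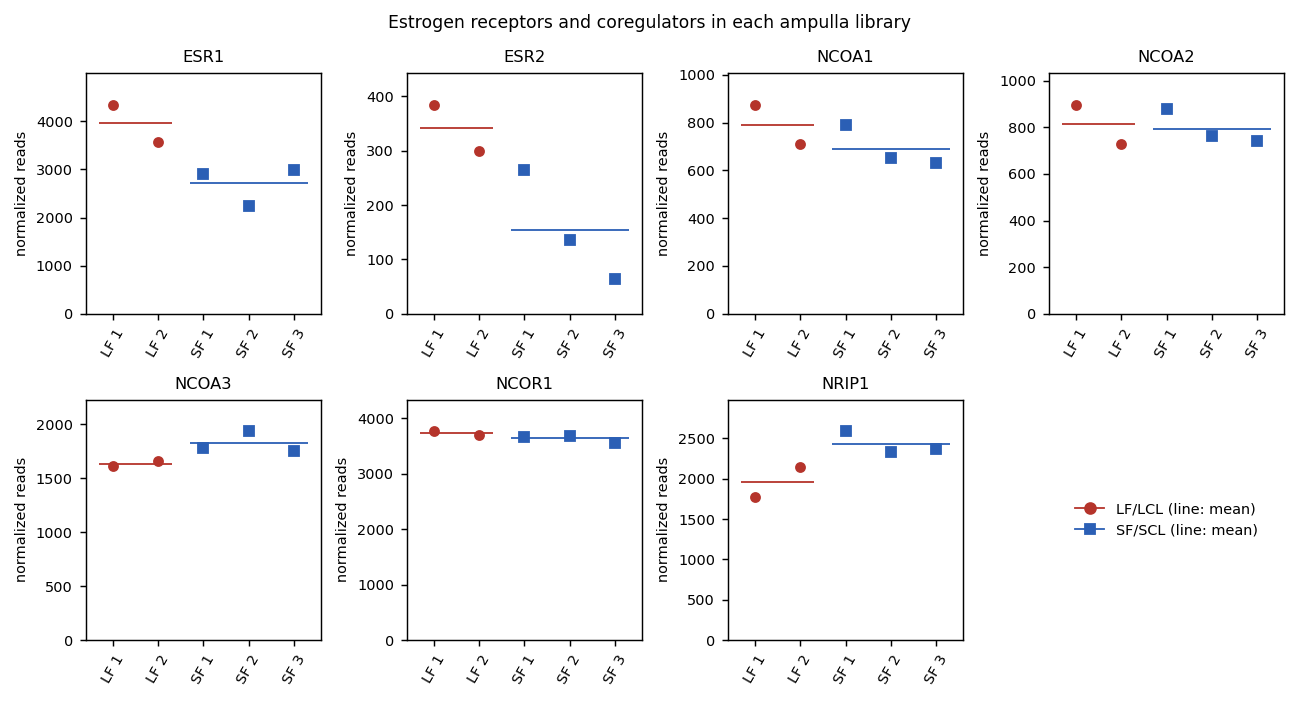
Normalized reads (y axis, from 0) of the 7 genes in each of the 5 ampulla libraries (x axis; LF 1 and 2 are LF/LCL, SF 1 to 3 are SF/SCL); points are single cows and lines are group means. ESR1 and ESR2 lie higher in LF/LCL, NRIP1 and NCOA3 lower, and NCOR1 is nearly level at 3558 to 3772.

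NRIP1 (ENSBTAG00000047293) had 1773 and 2145 normalized reads in the LF/LCL cows, against 2592, 2336 and 2365 in the SF/SCL cows. Every SF/SCL library was above both LF/LCL libraries, and LF/LCL replicate 1, the library with the most ESR1, had the least NRIP1. Group means were 1959 ± 262.8 (SD, n = 2) and 2431 ± 140.0 (SD, n = 3). The log2 fold change was -0.32 ± 0.12 (SE), with an interval from -0.61 to -0.02 and a limma adjusted p of 0.414 (0.364 to 0.794 over the alternatives). Without LF/LCL replicate 1 the fold change was -0.18, and without LF/LCL replicate 2 it was -0.45. The unadjusted p of NRIP1 was 0.0397, and it was under 0.05 in 11 of the 17 alternatives. It was 0.247 without LF/LCL replicate 1, 0.115, 0.0572 and 0.0602 when SF/SCL replicates 1, 2 and 3 were left out in turn, and 0.0203 without LF/LCL replicate 2.

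The 3 p160 coactivators did not share a direction. NCOA1 (ENSBTAG00000015007) had 875 and 709 normalized reads in the LF/LCL cows, against 788, 653 and 632 in the SF/SCL cows. Its groups overlapped, as SF/SCL replicate 1 lay between the LF/LCL libraries, and its log2 fold change was 0.19 ± 0.16 (SE, limma adjusted p 0.690). It was 0.04 without LF/LCL replicate 1, 0.35 without LF/LCL replicate 2 and 0.29 without SF/SCL replicate 1. NCOA2 (ENSBTAG00000020312) had 897 and 728 normalized reads, against 878, 764 and 743. LF/LCL replicate 2 was thus the lowest library and LF/LCL replicate 1 the highest, and the log2 fold change of NCOA2 was 0.03 with an interval from -0.32 to 0.38. Its sign turned with scaling by total reads (-0.008), without LF/LCL replicate 1 (-0.12) and without SF/SCL replicate 3 (-0.02).

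NCOA3 (ENSBTAG00000007489), a p160 coactivator first known as a gene amplified in breast cancer, had 1613 and 1655 normalized reads in the LF/LCL cows, against 1779, 1938 and 1756 in the SF/SCL cows. It was the p160 gene whose groups did not overlap, with lower values in LF/LCL. Its log2 fold change was -0.16 ± 0.10 (SE), with an interval from -0.40 to 0.08 and a limma adjusted p of 0.592.

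NCOR1 (ENSBTAG00000013271) had 3772 and 3706 normalized reads in the LF/LCL cows, against 3664, 3688 and 3558 in the SF/SCL cows. These ranges are separate, yet the lowest LF/LCL and the highest SF/SCL library differed by fewer reads than the LF/LCL libraries did from each other. The log2 fold change was 0.04 ± 0.09 (SE) with an interval from -0.18 to 0.26. Non-overlap was found for 5 of the 7 genes (71.4%), beside 30.1% of all genes tested. The exceptions were NCOA1 and NCOA2.

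**Figure D2:**
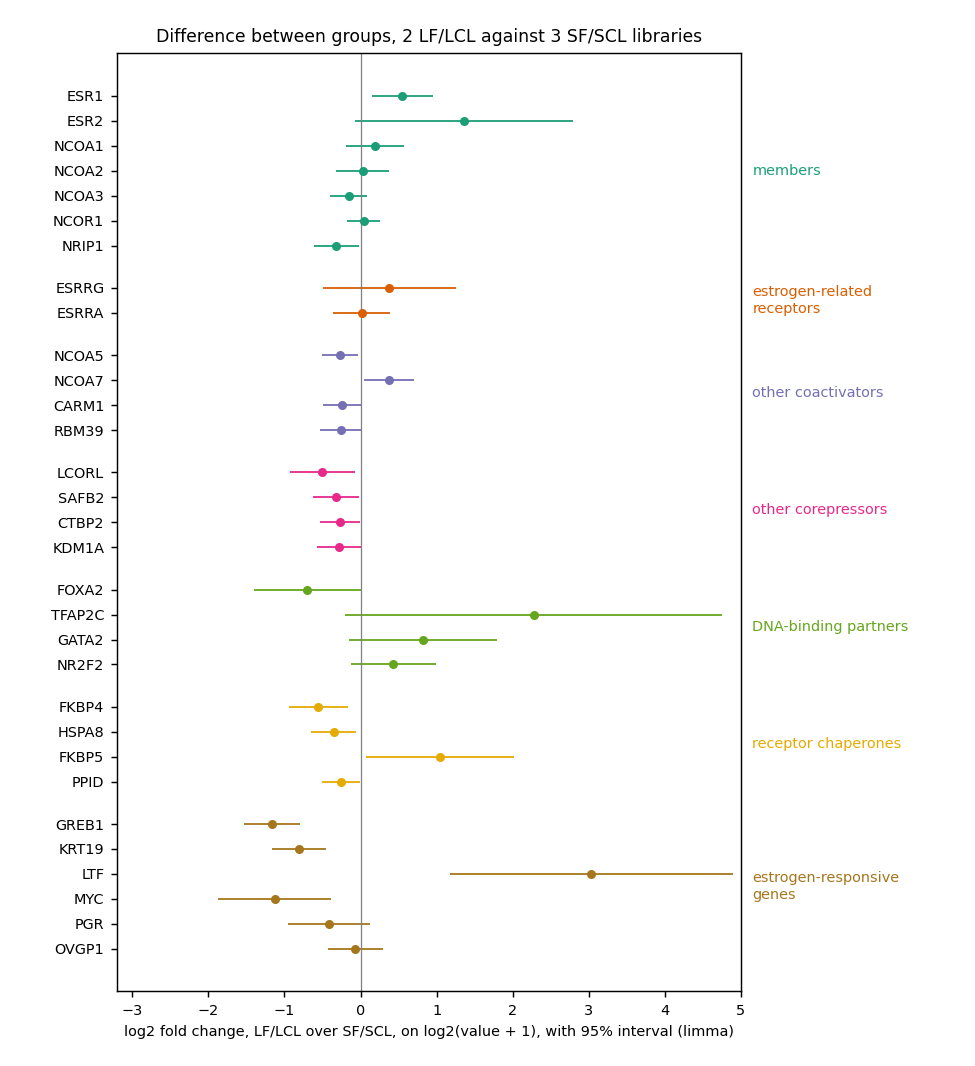
Log2 fold change of LF/LCL over SF/SCL (x axis, on log2(value + 1), limma) with 95% intervals as bars, for the 7 genes and for the genes named from 6 lists of the estrogen pathway (y axis). Among the 7 genes the intervals of ESR1 (0.15 to 0.95) and NRIP1 (-0.61 to -0.02) leave out 0, while that of ESR2 reaches from -0.07 to 2.79.

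The 7 genes differed widely in how much they varied between cows. The coefficient of variation over the 5 libraries was 2.12% for NCOR1, 7.25% for NCOA3 and 9.90% for NCOA2. It was 13.7% for both NRIP1 and NCOA1, 24.6% for ESR1 and 56.3% for ESR2. Within groups, the standard deviation on the log2 scale was 0.02 for NCOR1, at percentile 0.436 of all genes tested, and 0.85 for ESR2, at percentile 90.7. NCOA3 was at percentile 6.06 and ESR1 at 48.4. These ranks also carry counting error, which is larger for genes with few reads such as ESR2. Levels were not compared between genes, since the values were not divided by transcript length.

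Ratios inside a library do not depend on its scaling, and were compared between cows only. ESR1 had 11.3 and 11.9 times the normalized reads of ESR2 in LF/LCL, and 10.96, 16.6 and 47.1 times in SF/SCL. SF/SCL replicate 1 thus had the ratio of the LF/LCL cows, and SF/SCL replicate 3 stood apart. The log2 ratio was lower in LF/LCL by a difference of -0.82, within the spread between cows of the same group (SD 0.89), so that the fold changes of ESR1 and ESR2 were not shown to differ. Without SF/SCL replicate 3 the difference was -0.22, and without SF/SCL replicate 1 it was -1.27. The ratio of ESR1 to NRIP1, chosen after the values were seen, was 2.45 and 1.67 in the LF/LCL cows, against 1.122, 0.962 and 1.26. It was higher in both LF/LCL cows than in each SF/SCL cow, by 0.87 on the log2 scale, and by 0.59 without LF/LCL replicate 1. As ESR1 was higher and NRIP1 lower without overlap, this ratio had to separate the groups and adds no further result.

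Whether the receptors tracked the cell makeup of the samples was described with marker genes. The 12 smooth muscle markers read, led by MYH11, ACTA2 and DES, were all higher in LF/LCL. Of the 12, 10 had an unadjusted limma p under 0.05, beside 5.64% of all genes tested. None of the 12 was at 0. Their sum was 75519 to 143237 normalized reads in LF/LCL and 19404 to 49755 in SF/SCL. ESR2 was highest in the cow with the most and lowest in the cow with the fewest of these reads. Between those ends the order differed. SF/SCL replicate 2 had more muscle marker reads than replicate 1 (49755 and 46934) but less ESR2 (135 and 265). The sum of the proliferation markers had the same highest and lowest libraries. Relative to the muscle sum, ESR2 was 0.269% to 0.397% in LF/LCL and 0.272% to 0.565% in SF/SCL, which overlap. ESR1 was 3.04% to 4.74% of the muscle sum in LF/LCL and 4.52% to 15.4% in SF/SCL.

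Of the 10 stromal fibroblast markers, all read, 9 were higher in LF/LCL, and 0 had an unadjusted limma p under 0.05 (11.5% of all genes tested). The 10 markers summed to 94236 and 40618 normalized reads in LF/LCL and 25128 to 51324 in SF/SCL. ESR1 shared with this sum its highest library, LF/LCL replicate 1, and its lowest, SF/SCL replicate 2. Relative to it, ESR1 was 4.61% and 8.81% in LF/LCL and 5.82% to 8.94% in SF/SCL, and ESR2 was 0.408% and 0.739% against 0.123% to 0.599%. Both pairs of ranges overlapped. Of 17 tested ciliated cell markers 17 were lower in LF/LCL, 13 with an unadjusted limma p under 0.05, beside 5.86% of all genes tested. Ciliated sums were 59821 and 67990 in LF/LCL against 84623 to 90694 in SF/SCL. Relative to them, ESR1 was 5.26% to 7.27% in LF/LCL and 2.48% to 3.53% in SF/SCL. As ESR1 was higher and the ciliated sum lower in LF/LCL without overlap, this ratio had to separate the groups and adds no further result.

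Secretory epithelium markers without OVGP1 summed to 42140 and 47698 in LF/LCL and 41530 to 43669 in SF/SCL, with 9 of 9 above 0. Of these 7 were higher in LF/LCL, 4 of them (EPCAM, KRT7, PAX8 and CLDN4) with an unadjusted limma p under 0.05, beside 5.64% of all genes tested. The other 2 were lower, MSLN with a log2 fold change of -1.13 and MUC1 with -0.52, and their groups overlapped. Immune cell markers summed to 5277 and 6360 against 3284 to 5319 (13 of 13 above 0). Of the 13, 10 were higher in LF/LCL, 5 with an unadjusted limma p under 0.05, beside 5.64% of all genes tested. Endothelial markers summed to 6010 and 3697 against 4704 to 7221 (8 of 8). Of the 8, 5 were higher in LF/LCL and 3 lower. KDR, the endothelial marker with the highest mean, was lower (log2 fold change -0.75). It alone had an unadjusted limma p under 0.05, beside 5.86% of all genes tested that were lower with such a p. Mesothelial markers summed to 6921 and 7679 against 6848 to 8046 (5 of 5), with WT1 most of it. Proliferation markers summed to 2838 and 2074 against 1799 to 2005 (12 of 12). All 12 were higher in LF/LCL, 4 with an unadjusted limma p under 0.05, beside the same 5.64% of all genes. Blood markers were few, at 527.7 and 90.0 against 32.2 to 255.7, with ALAS2 at 0 throughout. The part of these markers in the receptor differences was not tested.

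**Figure D3:**
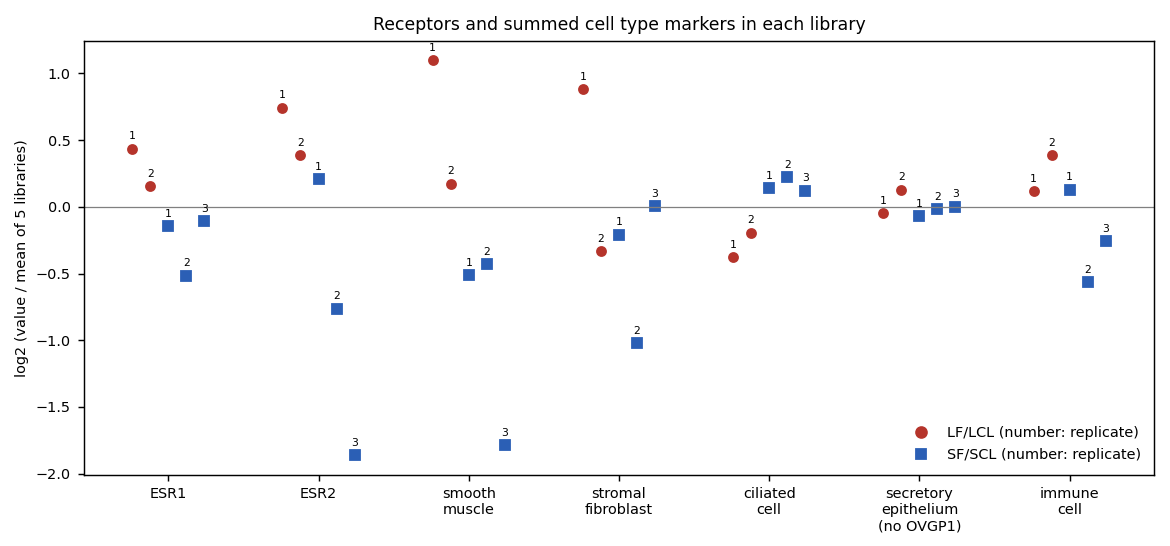
ESR1, ESR2 and the summed markers of 5 cell types in each library, as log2 of the value over its mean of 5 libraries (y axis); red circles are LF/LCL and blue squares SF/SCL, numbered by replicate. The ESR2 points follow the order of LF/LCL above SF/SCL seen for smooth muscle, with SF/SCL replicate 3 lowest in both, while ciliated markers lie the other way.

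The genes closest in pattern were sought among 11695 genes with a mean of at least 50 normalized reads, by Pearson correlation of log2 values over the 5 libraries. With so few libraries many genes come close, and 101, 172 and 119 genes had a correlation over 0.95 with ESR1, ESR2 and NRIP1. The closest to ESR1 were PTK2B (0.997), MSN (0.996) and HTRA3 (0.995). The closest to ESR2 were ACTG1 (0.998), PGRMC1 (0.998) and ACAP2 (0.996), of which PGRMC1 encodes a membrane component of progesterone binding. The closest to NRIP1 were ACOT8, PPM1E and C16orf93, each at 0.998. These are descriptions of 5 shared libraries.

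The rest of the estrogen pathway was read from 6 lists with 116 genes, of which 113 were matched and 108 passed the filter on low values. The 3 unmatched genes were not analysed here. An unadjusted p under 0.05 was found for 17 of the 108 (15.7%, beside 11.5% of all genes), 5 higher and 12 lower in LF/LCL, and an adjusted p under 0.05 for 0 with limma. The 17 became 9 without LF/LCL replicate 1, and 11 without SF/SCL replicate 1 or 2. By list, leaving out a library gave 0 (LF/LCL replicate 2) or 1 (each other library) for coactivators and 0 (LF/LCL replicate 2, SF/SCL replicate 1 or 2) to 2 for corepressors. It gave 0 to 4 for DNA-binding partners, the 4 without LF/LCL replicate 2, and 5 to 8 for estrogen-responsive genes, the 5 without LF/LCL replicate 1. The median log2 fold change of the 108 genes was -0.03.

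Of the other estrogen-binding and estrogen-related receptors, 3 of 4 were tested and 0 had an unadjusted limma p under 0.05, beside 11.5% of all genes tested. The membrane estrogen receptor GPER1 had 5.86 and 26.1 normalized reads in LF/LCL and 6.24 to 10.7 in SF/SCL, and ESRRB had no read in any library. ESRRA had a log2 fold change of 0.02 (-0.02 with scaling by total reads) and ESRRG of 0.38.

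Of the other coactivators 2 of 26 (7.69%, beside 11.5% of all genes tested) had an unadjusted p under 0.05, which were NCOA7 (log2 fold change 0.37 ± 0.14, SE) and NCOA5 (-0.27 ± 0.10). CARM1, the arginine methyltransferase that p160 proteins bring, was at -0.25 and the splicing coactivator RBM39 at -0.26. Of the other corepressors 3 of 24 had one (12.5%, near the 11.5% of all genes). These 3 were LCORL (-0.50 ± 0.17, SE), SAFB2 (-0.32 ± 0.12), a direct partner of ESR1, and CTBP2 (-0.27 ± 0.11), a repressor that NRIP1 binds. Each was lower in LF/LCL, and 5.86% of all genes were lower with an unadjusted p under 0.05. KDM1A was at -0.28.

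Among DNA-binding partners 0 of 14 had an unadjusted p under 0.05 with limma, beside 11.5% of all genes tested. FOXA2, a pioneer factor, had 205 and 320 normalized reads in LF/LCL and 350.4 to 565.0 in SF/SCL. TFAP2C had 299 and 139 against 10.7 to 121, GATA2 634 and 284 against 186 to 319, and NR2F2 2701 and 1617 against 1389 to 1716. DESeq2 gave an unadjusted p under 0.05 for 3 of 14 (12.7% of all genes).

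Of the receptor chaperones 4 of 11 (36.4%, beside 11.5% of all genes tested) had an unadjusted p under 0.05. FKBP5 was the higher gene among them in LF/LCL and 3 had lower values. With such a p, 5.64% of all genes were higher and 5.86% lower. The 4 became 1 without LF/LCL replicate 1, 3 without SF/SCL replicate 2 and 2 without any other library. The immunophilin FKBP4, which helps steroid receptors into the nucleus, had 6861 and 5791 normalized reads in the LF/LCL cows, against 7847, 10487 and 9602. FKBP5, its counterpart that holds receptors in a low-affinity state and is induced by progesterone and glucocorticoids, had 11006 and 13682, against 8188, 7537 and 3428. The pair thus lay in opposite directions, with log2 fold changes of -0.55 ± 0.16 and 1.04 ± 0.39 (SE). The groups did not overlap in either gene, which held for 30.1% of all genes tested, and both genes were named for their small p. HSPA8 was at -0.35 and PPID at -0.26.

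The estrogen-responsive genes, most of them known from breast cell lines, lay in both directions. Of 30 tested, 18 were lower and 12 higher in LF/LCL, and 8 (26.7%, beside 11.5% of all genes tested) had an unadjusted p under 0.05, 5 lower and 3 higher (5.86% and 5.64% of all genes). GREB1, a cofactor of ESR1 and one of its early targets, had 1114 and 953 normalized reads in the LF/LCL cows, against 1983, 2611 and 2403 in the SF/SCL cows. Its log2 fold change was -1.17 ± 0.15 (SE), with a limma adjusted p of 0.178, and from 2.9e-07 with DESeq2 to 0.351 over the alternatives. KRT19, an epithelial keratin, had 3516 and 3166 against 5805, 5066 and 6749, and MYC had 511 and 436 against 733, 999 and 1510. LTF, the lactoferrin gene, went the other way and differed widely between the LF/LCL cows, with 1104 and 6341 against 225 to 493. DESeq2 and the edgeR exact test each called 4 of the 108 pathway genes, beside 2.89% and 2.12% of all genes, and these were GREB1, KRT19, MYC and LTF. LTF, with a coefficient of variation of 155%, does not pass the alternative filter of a mean above the standard deviation, which the study also applied.

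The progesterone receptor gene PGR, a classical target of ESR1, had 252 and 188 normalized reads in the LF/LCL cows, against 244, 340.4 and 294. Its groups overlapped and its log2 fold change was -0.41 ± 0.22 (SE, limma adjusted p 0.537), which was -0.20 without LF/LCL replicate 2 and -0.63 without LF/LCL replicate 1. OVGP1 had a log2 fold change of -0.07 with an interval from -0.42 to 0.29, and of 0.07 without LF/LCL replicate 2.

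**Figure D4:**
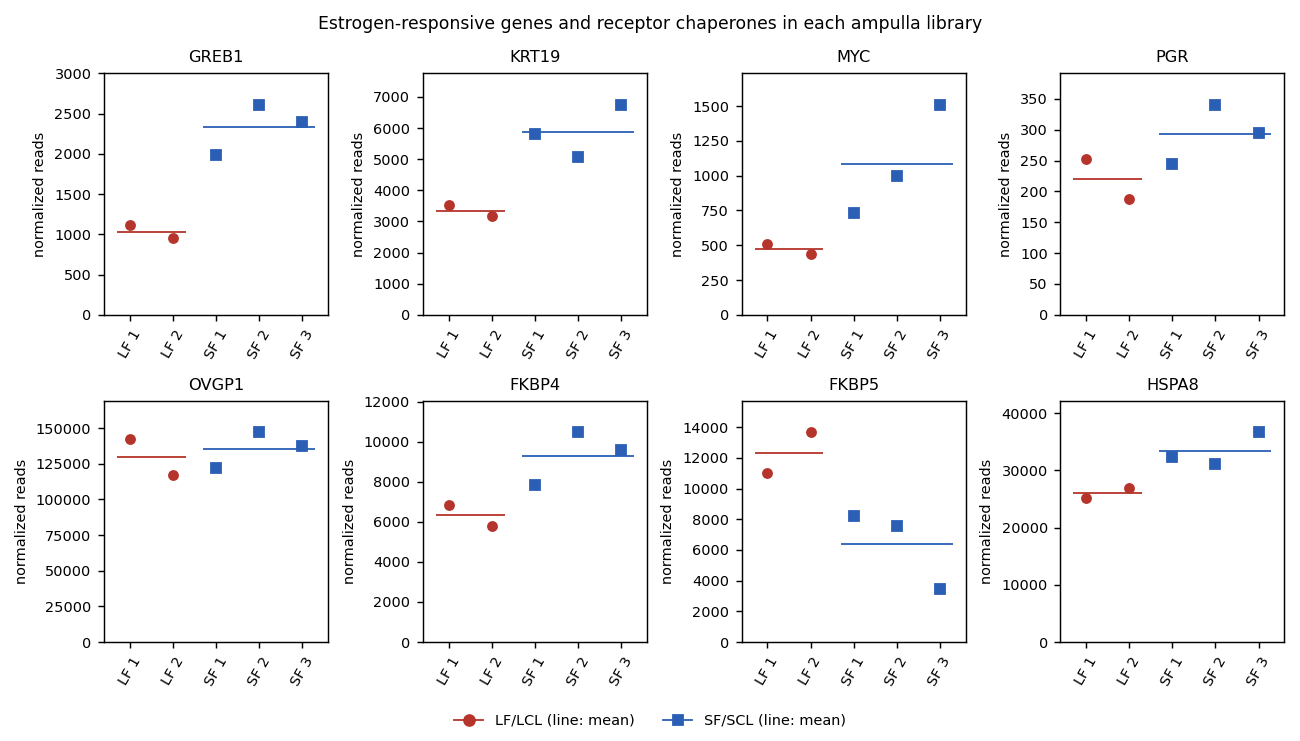
Normalized reads (y axis, from 0) of 5 estrogen-responsive genes and 3 receptor chaperones in each of the 5 ampulla libraries (x axis); points are single cows and lines are group means. GREB1, KRT19, MYC, FKBP4 and HSPA8 lie lower in both LF/LCL cows, FKBP5 lies higher, and PGR and OVGP1 overlap between the groups.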

How the data were processed

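RNA of 5 ampulla libraries was sequenced as polyA-selected paired reads. Per the submitters' processing notes and the study's methods, reads were aligned with TopHat2 2.0.8 and Bowtie2 2.1.0 to a repeat-masked UMD assembly of Bos taurus, and uniquely mapped reads were counted with HTSeq 0.5.4p2. The deposited values are a normalized signal, which is each gene's reads over the size factor of its library from DESeq 1.12.1. Whether counting used strand was not given in the sources used here, so overlapping genes are uncertain. Dividing by the value of 1 read gave whole reads (within 0.01) for 100% of values in each library. Totals were 13418278 to 19592174 reads; Poisson intervals cover counting error only.

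The main test was limma 3.58.1 in R 4.3.3 on log2(value + 1), with trend and robust estimation, on 15815 genes whose mean value exceeded 5, two-sided and without covariates. P-values were adjusted by Benjamini-Hochberg over all of these, at a threshold of 0.05. The pseudocount understates the change of low genes. The study's own test needs counts, so edgeR 4.0.16 and DESeq2 1.42.0 were run on the recovered reads as alternatives. Groups came from the sample titles, and replicates were numbered in accession order. The fit was tested on simulated data.

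The members and lists were chosen with earlier results of these data known. Named genes were the 7 members, up to 4 genes per pathway list with the smallest p (mean of at least 15, unshared symbol), PGR, GREB1 and OVGP1, up to 3 markers per list, and the 3 genes most alike to ESR1, ESR2 and NRIP1. The listed KAT2B, CTSD and IGF1 were matched to PCAF, CATD and IGF-I after the data were seen, and GPER1, ESRRB and further markers are named beside that rule. A further gene of that rule is not reported here. Ratios were described without a test.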

Additional observations from a re-analysis of the deposited data

How the results depend on the processing

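Alternatives comprised 4 other tools, 2 pseudocounts, 2 filters, 2 scalings, plain estimation, thinning, and leaving out each library; without an LF/LCL library that group has 1 library, assumed to vary like the others. Of the 31 members and pathway genes named, 28 kept their sign throughout (marker genes and genes alike in pattern were not refitted), and the 7 members had 0 adjusted calls in every fit. LTF was fitted in 16 of the 17 alternatives, as 1 filter removed it. Over all genes DESeq2 called 457 (219 higher, 238 lower in LF/LCL) and the edgeR exact test 335 (183 and 152), and each called 4 pathway genes, where limma called 0. The limma counts stayed at 0 when an SF/SCL library was left out. DESeq2 and the edgeR exact test were not run without a library. The members with an unadjusted p under 0.05 numbered 3 with DESeq2 and with limma-voom, 1 with plain estimation and 0 to 2 without a library. The pathway genes numbered 22 with scaling by total reads, 20 with DESeq2, 8 with plain estimation and 9 to 13 without a library. With scaling by total reads NCOA2 went to -0.008 and ESRRA to -0.0192, while the median of all genes went to -0.03. Without a library NCOA2 ran from -0.1227 to 0.1786, ESRRA from -0.1219 to 0.1554, and OVGP1 from -0.2066 to 0.0717. ESRRG ran from 0.1677 to 0.5392, SAFB2 from -0.4736 to -0.1711 and FKBP5 from 0.6435 to 1.2714. The log2 difference of ESR1 to the stromal sum ran from -0.600 to 0.333 (main -0.13), of ESR2 to the muscle sum from -0.457 to 0.133 (main -0.17), of ESR2 to the stromal sum from -0.0487 to 1.11 (main 0.69) and of ESR1 to NRIP1 from 0.590 to 1.145 (main 0.87). The last ratio was added after seeing the data. The cause was not tested. No paired analysis was possible because each library came from a different cow, in 1 group only.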
